A study of Mus musculus with 16 samples.

Results

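Of the 52636 genes in the table of read counts, 67 had a mouse symbol that starts with Slc1a, Slc3a, Slc6a, Slc7a, Slc36a, Slc38a or Slc43a, the families that hold most carriers of amino acids. These were 63 carriers or carrier subunits and 4 genes that bear a carrier's name because they lie on its opposite strand (Slc7a6os, Slc36a1os, Slc36a3os and Slc6a19os). The 43 genes described below are those with 1 CPM (a count expressed relative to library size, after TMM scaling) or more in 2 or more of 16 libraries. They were 42 carriers and subunits and Slc7a6os. All 43 also passed the filter on low counts that the tests used. Slc38a5 entered only through 2 lung control libraries and Slc7a11 only through both knockout-labelled heart libraries, so the choice itself bears on the direction of these 2 genes in those tissues. Just inside the minimum were Slc38a5, with a highest value of 1.55 CPM, and Slc6a12, with 1.88 CPM. Just outside it were Slc7a9 and Slc6a7, which passed 1 CPM in 1 library each, at 1.07 and 1.03 CPM.

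The libraries hold polyadenylated RNA of endothelial cells, the cells that line blood vessels, from mouse liver, lung and heart. Control animals are labelled wild type, and the others double knockout for Erg and Fli1, which encode ETS family transcription factors active in endothelium. The same tamoxifen treatment is stated for every library, controls included, and all cells were taken at day 10 after it. The recombinase that tamoxifen switches on, the promoter that drives it and the animals' age are not given in the sources read for this work. Endothelial cells had been marked by an antibody to VE-cadherin given to the living animal, freed with collagenase and dispase, and sorted as live cells with CD31 and VE-cadherin and without CD45. For liver and for lung there were 3 libraries of each genotype, and for heart 2 of each. By Xist and Y-linked counts, each liver and lung group held 2 female and 1 male library, both heart controls were female, and knockout-labelled heart held 1 female and 1 male library, so in heart sex is unbalanced between the groups. Nothing in the labels says that each library came from its own animal, so the p-values measure only the spread between these libraries, which may in part be technical.

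Amino acids do not cross a cell membrane unaided, and each carrier family moves its own set. Light chains of the Slc7 family sit at the surface only when joined to a heavy chain, Slc3a2 (CD98) or Slc3a1, and trade amino acids across the membrane. Slc1, Slc6 and Slc38 carriers pull their substrates in with sodium, while several Slc36 and Slc38 members work on lysosomes, where they export or sense amino acids. Endothelial cells take amino acids from the blood both for themselves and for the tissue behind them, and lung endothelium is known for clearing noradrenaline and serotonin, which Slc6 carriers move.

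Total counts ran from 30226340 to 41449054 per library. Erg was at 337 to 371 CPM in liver controls and 131 to 165 CPM in knockout-labelled liver. It fell in liver (log2 change −1.31, adjusted p = 1.54e-05) and in lung (log2 change −0.52, adjusted p = 0.0231), while heart had 204 and 229 against 158 and 155 CPM (adjusted p = 0.0538). Fli1 was not lower in any tissue, and in lung it rose (log2 change 0.69, adjusted p = 0.0131), so Fli1 counts do not check that label and the libraries are called knockout-labelled throughout. A read count over a gene whose deleted part is not known checks the label only in part. Summed over 10 endothelial markers, levels were 19213 to 21219 CPM in liver controls and 11667 to 15755 in knockout-labelled liver, 19749.8 to 20668 against 11253 to 15790.1 in lung, and 14999 to 15303 against 8924 to 10433 in heart, and none of the 10 was at 0 in any library. Of the 10, 5 fell in liver, 4 fell and 1 rose in lung and 5 fell in heart. In such bulk samples fewer cells of a type and less RNA per cell cannot be told apart.

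The first question was how the 43 genes are spread over the 3 tissues in controls. Between lung and liver, 18 genes were higher in lung and 15 lower, 76.7% of the 43, where 47% of all 19646 genes tested differed (24.6% higher and 22.4% lower). Between heart and liver, 13 were higher in heart and 15 lower (65.1%, against 47.6% of all genes, 23.8% higher and 23.9% lower), and between heart and lung, 7 were higher in heart and 12 lower (44.2%, against 29.5%, 13.5% higher and 16.1% lower). These counts come from edgeR quasi-likelihood tests with Benjamini-Hochberg adjustment at 0.05, over all genes. Slc38a5 is counted as higher in lung than in liver and as lower in heart than in lung. It entered the list only through 2 lung control libraries, so its side in both counts was fixed in part. In all, 38 genes differed in at least 1 pair of tissues and 5 in none. That tally is not given for all genes, so it does not set the 43 apart. Markers of other cells also differed between the controls. In lung against liver, all 15 hepatocyte markers were lower and all 10 lung epithelial markers higher. In heart against liver, all 15 hepatocyte markers were lower and all 10 cardiomyocyte markers higher. Of 14 stellate, fibroblast and mural markers, 12 were higher there and 1 lower. In heart against lung, all 10 lung epithelial markers were lower. The part of these cells in the tissue counts was not tested. Without heart control 1 the heart and lung count fell to 7, and without heart control 2 to 12.

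Levels can be set side by side between genes only per length, as CPM per kilobase (kb) of exon, given here as mean ± SD over 3 libraries in liver and lung and 2 in heart. Slc43a3, whose product moves purine nucleobases rather than amino acids, led liver with 324 ± 57.9 CPM per kb and lung with 229.6 ± 53. Next in liver came Slc3a2, the common heavy chain, at 90.5 ± 2.94, and Slc38a10 at 62.1 ± 3.86. Lung had Slc3a2 at 191 ± 20.9 and then Slc6a2, the noradrenaline carrier, at 75.9 ± 18.7. Heart was led by Slc6a6, the taurine carrier, with 187 ± 10.8 CPM per kb, ahead of Slc43a3 at 113 ± 26.6. In liver the ranges of Slc43a3 and Slc3a2 did not overlap, and in lung those of Slc43a3 (169 in the lowest library) and Slc3a2 did.

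**Figure D1:**
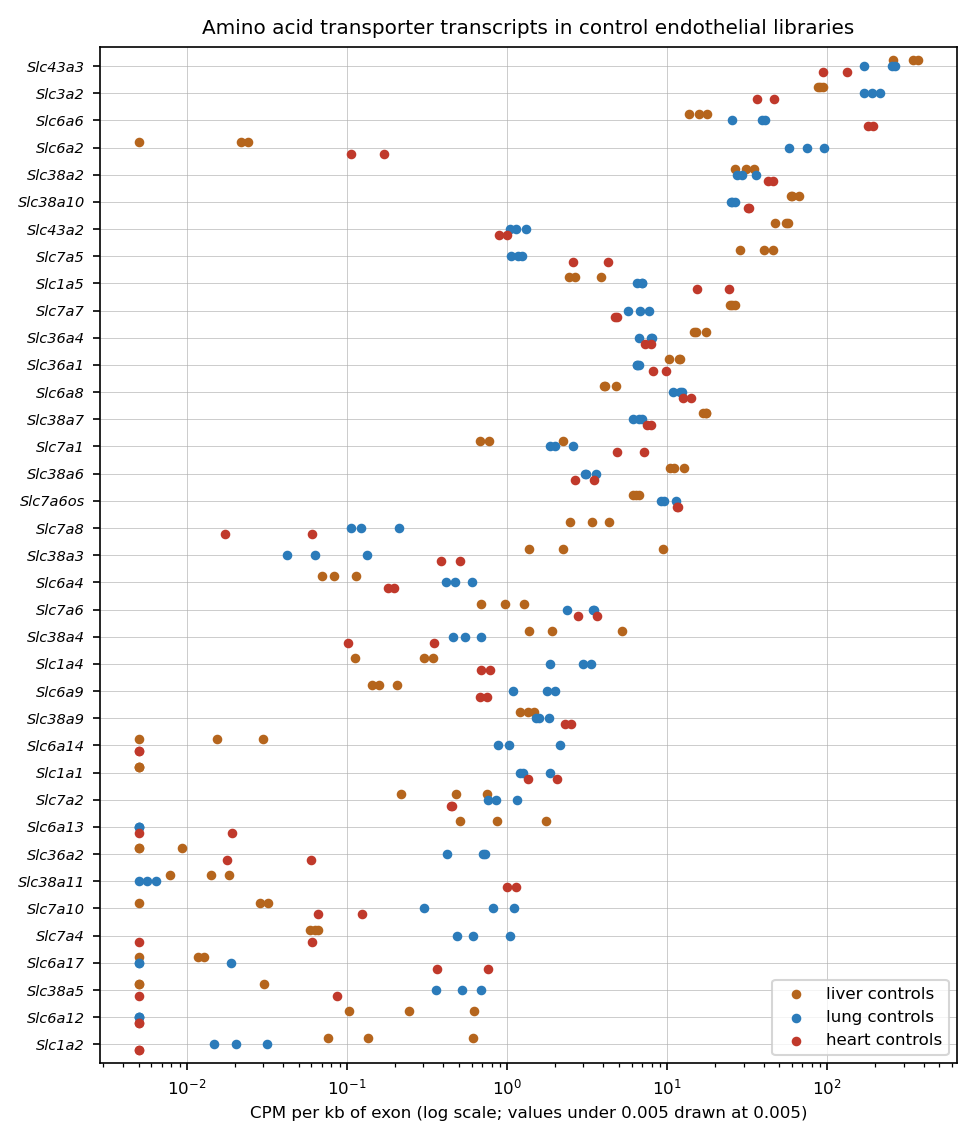
Level of the 37 genes that reached 0.5 CPM per kb of exon in a control library, on a log axis; each point is 1 control library, coloured by tissue, and values under 0.005 are drawn at 0.005. Slc6a2 stands apart in lung, Slc6a6 in heart, and Slc43a2 and Slc7a5 in liver, while Slc38a2 lies close in the 3 tissues.

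The second question was what differed between knockout-labelled and control libraries within each tissue. In liver 7 of the 43 genes rose and 7 fell (32.6%), where 19.4% of all genes tested changed, 9.54% upward and 9.87% downward. In lung 5 rose and 3 fell (18.6%), where 8.46% of all genes changed, 4.35% upward and 4.11% downward. In heart 8 rose and 3 fell (25.6%), where 19.3% of all genes changed, 10.2% upward and 9.09% downward. Of the 8, Slc7a11 was admitted to the list by the very libraries in which it is high. The median log2 change of the 43 was 0.23 in liver, beside 0.02 for all genes. In heart it was 0.57, beside 0.0061. In lung, over the 41 genes with counts enough for a value, it was −0.0037, beside −0.02 for all genes. In all, 23 genes changed in at least 1 tissue, 10 of them in 2 tissues and none in 3, and 20 passed in no tissue. The same tally over all genes is not given here, so it does not set the 43 apart. Single libraries move the counts in each tissue, and the shares of all genes without those libraries are not given. Without liver control 3, 3 genes rose and 4 fell in liver, and without knockout-labelled liver library 3, 4 rose. Without lung control 1, 3 rose in lung, and 1 fell without lung control 3 or without knockout-labelled lung library 1. In heart 2 rose without heart control 1, 4 without heart control 2 and 2 without knockout-labelled heart library 1. Without knockout-labelled heart library 2, the male library, 6 rose and 2 fell. With only liver libraries in the fit, 4 fell in liver.

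**Figure D2:**
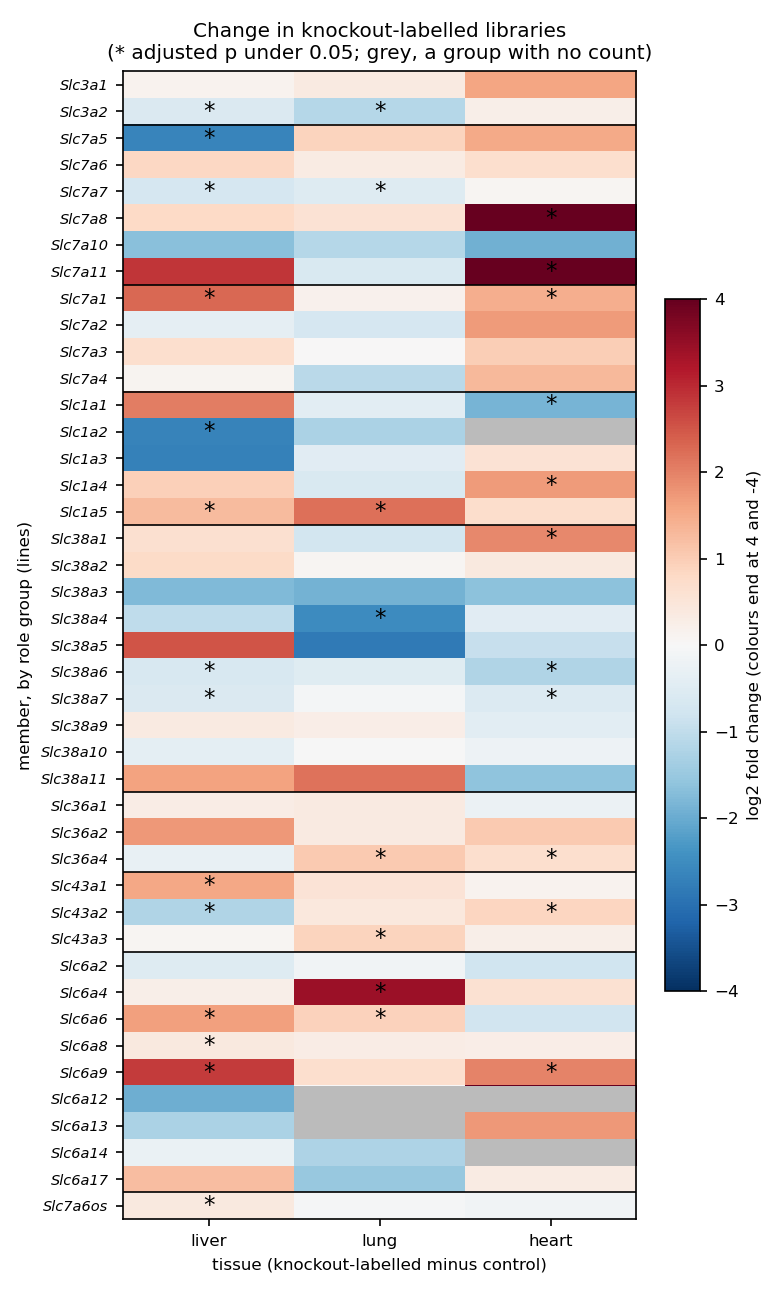
Log2 change of each of the 43 genes between knockout-labelled and control libraries in liver, lung and heart (columns), by role group (separated by lines); red is higher and blue lower in knockout-labelled libraries, and a star marks an adjusted p under 0.05. Grey cells are genes with no count in 1 or both of the groups compared, for which the fitted change is not drawn. Slc7a5 and Slc43a2 are blue in liver and red in heart, where the star of Slc43a2 is kept and Slc7a5 has none.

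Slc3a2 (chr19:8706882-8723369, GRCm38, minus strand) fell in liver and lung. It is the heavy chain that brings the light chains below to the cell surface. Its controls read 311, 316 and 331 CPM in liver, 601, 748 and 675 in lung and 128 and 165 in heart, and no 2 tissues overlapped. Knockout-labelled liver had 246, 154 and 239 CPM, below every control (log2 change −0.59, SE 0.17, adjusted p = 0.0248). In knockout-labelled lung it was 339, 281 and 295 CPM, again below every control (log2 change −1.14, SE 0.17, adjusted p = 0.00108). Heart had 179 and 167 CPM, above both controls (log2 change 0.24, SE 0.20, adjusted p = 0.451), and did not pass. The liver call ended without liver control 1, 2 or 3 or liver knockout-labelled library 2 (adjusted p = 0.0531 to 0.08) and with only liver libraries in the fit (adjusted p = 0.0743). The other heavy chain, Slc3a1, stayed at or under 1.45 CPM in every library and passed in no tissue; 26.5% of its exon bases lie opposite those of Prepl, and without a stated strand setting reads of the 2 genes cannot be told apart.

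Slc7a5 (chr8:121881150-121907694, minus strand), the LAT1 light chain for leucine, phenylalanine and other large neutral amino acids, was a liver gene in controls, with 106, 150.1 and 171 CPM against 3.92, 4.32 and 4.57 in lung and 15.9 and 9.51 in heart. In knockout-labelled liver it fell to 46.2, 10.1 and 11.8 CPM (log2 change −2.65, SE 0.54, adjusted p = 0.00333), with every library below every control and library 1 well above the other 2. Knockout-labelled lung had 9.75, 10.6 and 3.44 CPM, where library 3 lay under every control (log2 change 0.89, SE 0.54, adjusted p = 0.359). Knockout-labelled heart had 46.4 and 25.8 CPM, above both controls (log2 change 1.51, SE 0.64, adjusted p = 0.119). Heart did not pass, but did with only heart libraries in the fit (adjusted p = 0.0253) and without knockout-labelled liver library 1 (adjusted p = 0.0285). The fall in liver kept its call in each of the 23 other settings run, left-out libraries included. It took Slc7a5 in liver to the range of the heart libraries.

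Slc7a7, the y+LAT1 light chain that passes arginine and lysine outward in exchange for neutral amino acids, was also highest in liver controls, with 84.7, 82.4 and 87.9 CPM against 25.7, 18.9 and 22.3 in lung and 16.2 and 15.7 in heart. It fell to 47.8, 60.8 and 51 CPM in liver (log2 change −0.68, SE 0.12, adjusted p = 0.00156) and to 14.2, 16.8 and 16 CPM in lung (log2 change −0.51, SE 0.12, adjusted p = 0.021), with no overlap of groups in either. Heart stood at 16.1 and 17.8 CPM (log2 change 0.088, SE 0.15, adjusted p = 0.74). The lung call ended without lung control 1 or 3 or lung knockout-labelled library 1 or 3 (adjusted p = 0.052 to 0.0939) and with only lung libraries in the fit (adjusted p = 0.0611). Of the exon bases of Slc7a7, 6.998% lie opposite those of Oxa1l. Slc7a8, the LAT2 light chain for neutral amino acids, read 16.9, 12.4 and 21.6 CPM in liver controls and 0.0871 and 0.305 in heart controls. Knockout-labelled heart rose to 6.65 and 6.83 CPM (log2 change 5.07, SE 0.82, adjusted p = 0.000978), far above its controls and still below every liver library. Liver had 52.2, 22 and 14.6 CPM, overlapping its controls (log2 change 0.80, SE 0.50, adjusted p = 0.293), and lung stayed between 0.485 and 2.09 CPM.

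Slc7a11 (xCT), which takes up cystine in exchange for glutamate and so feeds glutathione synthesis, had 0.203 and 0.0277 CPM in heart controls and 3.13 and 1.48 in knockout-labelled heart (log2 change 4.29, SE 1.05, adjusted p = 0.0119). These 2 libraries are also those that admitted it to the list. The call ended without heart control 2 or heart knockout-labelled library 1 (adjusted p = 0.0747 to 0.107). In lung it overlapped between groups, and in liver 0.226, 0.0580 and 0.223 CPM compares with 0.0264, 0 and 0.0304 (log2 change 2.87, SE 1.19, adjusted p = 0.113). Slc7a6 (y+LAT2) read 5.80, 3.13 and 4.44 against 10.8, 4.35 and 8.74 CPM in liver (log2 change 0.83, SE 0.32, adjusted p = 0.0842) and passed in no tissue. Slc7a10, a light chain for small neutral amino acids, reached 2.33 CPM in lung control 2 and passed in none either. Beside the rises in heart, other cells' markers also moved. The lung epithelial list, 10 genes, summed to 5.43 to 7.65 CPM in heart controls and 105 to 158 in knockout-labelled heart, with 6 of 10 higher, among them Sftpc at 0.929 and 1.30 against 46 and 81.8 CPM. The leukocyte list summed to 12 to 38.5 against 125 to 226 CPM, with 2 of 10 tested genes higher (Lyz2 and Ptprc). Nkx2-1 was at 0 in both heart controls. Their part in the heart results was not tested.

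The 6 light chains expressed here were then set against their heavy chain, as the sum of their levels per kb in percent of Slc3a2, a measure chosen after the levels had been seen. In liver controls it was 66.9, 76.5 and 83.1%, and in knockout-labelled liver 57, 60.6 and 34.5%. Lung controls had 7.73, 4.96 and 6.27% and knockout-labelled lung 10.8, 16 and 12.8%. Heart had 35.8 and 21.9% in controls and 49.6 and 37.9% in knockout-labelled libraries. Groups did not overlap within any tissue. In lung the light chain sum itself was 11.9 ± 1.33 CPM per kb in controls and 11.3 ± 1.30 in knockout-labelled libraries (SD, 3 libraries each), while Slc3a2 fell. An exact two-sided permutation test gave p = 0.1 in liver and in lung and p = 0.333 in heart, the smallest values these group sizes allow, so the design cannot pass 0.05. Slc7a5 made up 48.7 to 59.1% of the light chain sum in liver controls and 10.3 to 31.4% in knockout-labelled liver.

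**Figure D3:**
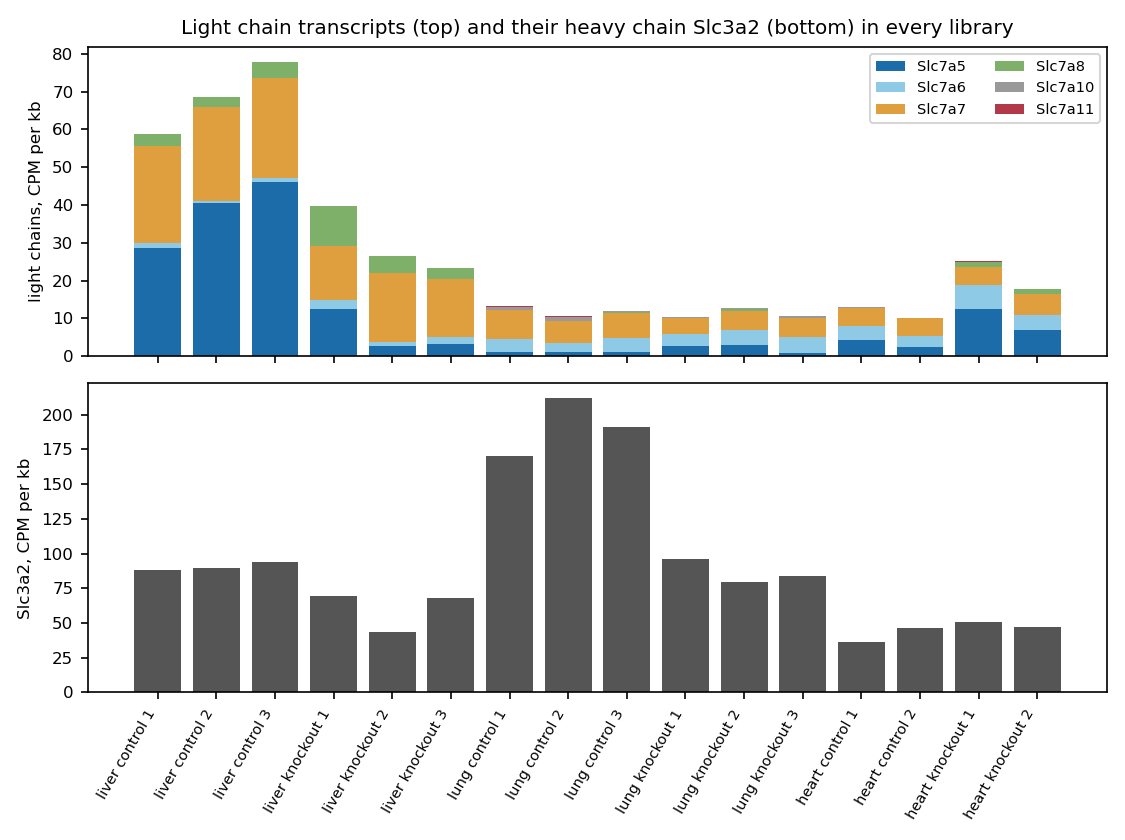
Light chain transcripts stacked by gene (top) and the heavy chain Slc3a2 (bottom) in each of the 16 libraries, both as CPM per kb of exon. Slc7a5 (dark blue) shrinks in the knockout-labelled liver libraries from 28.7 or more to 12.5 or less CPM per kb, and Slc3a2 is tallest in the lung controls.

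Several carriers are textbook targets of ATF4, the transcription factor of the amino acid response, so the windows from 250 bases before to 50 after each start site (RefSeq, GRCm38.p6) were searched on both strands for its composite element, TGATGNAA. Such windows were given for 31 of the 43 genes, 49 in all. The element was in 4 of the 49 windows, of Slc7a11, Slc1a4 and Slc7a7, and in 3.97% of all 32851 windows. The stretches that hold it are shown for these 3 genes, since Slc7a11 and Slc1a4 rose in heart and Slc7a7 fell in liver and lung. Each runs 5′ to 3′ on the gene's strand, from 250 bases before the start to 10 after, with the matches in capitals. Slc7a11 (chr3:50443604-50443863, minus strand) has matches beginning 66 and 47 bases before the start. Slc1a4 (chr11:20332704-20332963, minus strand) has 1 that begins 4 bases before its start. Slc7a7 (chr14:54417935-54418194, minus strand) has matches that begin 141 bases and 1 base before its start. The window of another Slc7a7 start (chr14:54417693-54417952, not shown) overlaps this stretch. It holds the later of these matches again, 243 bases before that other start, so this match is counted in both windows.
Slc7a11: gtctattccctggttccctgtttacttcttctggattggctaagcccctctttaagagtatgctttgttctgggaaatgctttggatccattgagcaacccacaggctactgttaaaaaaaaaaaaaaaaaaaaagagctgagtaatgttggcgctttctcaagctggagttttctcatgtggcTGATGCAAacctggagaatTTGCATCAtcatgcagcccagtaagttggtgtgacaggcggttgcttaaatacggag
Slc1a4: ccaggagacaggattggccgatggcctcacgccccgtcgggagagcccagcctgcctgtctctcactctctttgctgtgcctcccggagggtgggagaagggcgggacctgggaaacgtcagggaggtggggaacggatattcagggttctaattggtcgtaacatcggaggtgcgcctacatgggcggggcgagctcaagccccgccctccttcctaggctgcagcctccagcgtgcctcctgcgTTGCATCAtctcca
Slc7a7: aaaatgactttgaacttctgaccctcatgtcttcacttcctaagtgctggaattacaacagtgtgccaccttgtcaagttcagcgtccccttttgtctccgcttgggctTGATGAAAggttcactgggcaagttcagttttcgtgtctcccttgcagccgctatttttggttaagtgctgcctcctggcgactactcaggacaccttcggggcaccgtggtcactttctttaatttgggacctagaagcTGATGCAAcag
A match is a description of letters, not of binding. The ETS-type sequence CCGGAAGT was searched only in this exact form, so shorter or variant ETS sites were not counted. It was in none of the 49 windows and in 3.89% of all windows. The antioxidant element TGACNNNGC was in 9 of 49, of 7 genes (Slc36a1, Slc38a2, Slc43a1, Slc6a13, Slc6a9, Slc7a1 and Slc7a6), and in 12.4% of all. The composite element and the antioxidant element share their first 3 letters and differ in the fourth.

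Of the cationic carriers, Slc7a1 (chr5:148327410-148399904, minus strand), the CAT1 carrier of arginine, lysine and ornithine, rose in liver and heart. Liver went from 25.6, 8.85 and 7.81 CPM in controls to 86.6, 43.1 and 76.9 (log2 change 2.28, SE 0.38, adjusted p = 0.00089). Heart went from 82.2 and 55.7 CPM to 193 and 182 (log2 change 1.44, SE 0.45, adjusted p = 0.0392). In both tissues every knockout-labelled library lay above every control. Lung had 29.9, 23.1 and 21.5 against 28.5, 27.7 and 28.1 CPM, which overlap (log2 change 0.18, SE 0.37, adjusted p = 0.832). The heart call ended without heart control 1 or 2 or heart knockout-labelled library 1 or 2 (adjusted p = 0.0853 to 0.229). Slc7a2 (CAT2) read 4.09 and 4.16 against 17.9 and 9.19 CPM in heart and did not pass (adjusted p = 0.143). Slc7a3 and Slc7a4 passed in no tissue, and Slc7a4, a relative with no settled substrate, was higher in lung than in heart or liver controls.

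In the Slc1 family, Slc1a5 (chr7:16781340-16798274, plus strand), the ASCT2 carrier of glutamine and other neutral amino acids, rose in lung and liver. Lung went from 29, 27 and 29.1 CPM to 114, 99.7 and 175 (log2 change 2.19, SE 0.36, adjusted p = 0.00211), with groups far apart. Liver went from 16.2, 10.2 and 11.1 CPM to 40.1, 13.4 and 36.1 (log2 change 1.26, SE 0.36, adjusted p = 0.0246), where knockout-labelled library 2 lay within the controls. Heart controls, at 101 and 64.4 CPM, were above both other tissues, and 168 and 102 CPM in knockout-labelled heart did not pass (log2 change 0.70, SE 0.43, adjusted p = 0.278). The liver call ended without liver control 2 or 3 or liver knockout-labelled library 1 or 3 (adjusted p = 0.0746 to 0.0969) and with only liver libraries in the fit (adjusted p = 0.0685). Slc1a4 (ASCT1), a carrier of alanine, serine and cysteine, rose in heart from 3.08 and 2.69 CPM to 9.96 and 8.70 (log2 change 1.69, SE 0.52, adjusted p = 0.0352). That call ended without heart control 1 or 2 or heart knockout-labelled library 1 or 2 (adjusted p = 0.0723 to 0.176).

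The glutamate carriers of this family differed by tissue. Slc1a1 (EAAT3) had 15.3, 9.89 and 10.4 CPM in lung controls and 16.9 and 11.2 in heart controls, but 1 count in all liver controls together. In heart it fell to 4.65 and 3.05 CPM (log2 change −1.87, SE 0.53, adjusted p = 0.0257), below both controls, and the call ended without heart control 1 or 2 or heart knockout-labelled library 1 or 2 (adjusted p = 0.0532 to 0.162). For Slc1a1, 31.9% of exon bases lie opposite those of 4430402I18Rik. Slc1a2 (EAAT2) was listed with no count in heart controls and was at least 85.1-fold higher in liver controls, taking 3 counts over the heart group as the floor. In liver it read 1.001, 1.77 and 8.08 CPM in controls and 0.483, 1.10 and 0.0957 in knockout-labelled libraries (log2 change −2.67, SE 0.85, adjusted p = 0.0441), and the groups overlapped. This fall rests on liver control 3, since without it the adjusted p was 0.338. Leaving out knockout-labelled liver library 1 or 3, or any lung library, ended the call as well (adjusted p = 0.0538 to 0.114), as did a fit with only liver libraries (adjusted p = 0.115). Liver control 3 also had the highest hepatocyte markers, a list of 15 genes that summed to 3088 CPM there, to 880.0 and 1579 CPM in liver controls 1 and 2 and to 709 to 1076 CPM in knockout-labelled liver, with none of the 15 at 0 in liver. The part of these cells in the Slc1a2 result was not tested. Slc1a3 (EAAT1) passed in no tissue.

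Of the 10 Slc38 carriers, 5 were lower and 1 higher in lung than in liver controls, and 4 did not pass, where 22.4% of all genes were lower and 24.6% higher. The higher 1, Slc38a5, was admitted to the list only through lung control libraries, which fixed its side in part. Slc38a2 (SNAT2), the sodium-coupled carrier that cells raise when amino acids are scarce, differed in no pair of tissues, with 306, 276 and 234 CPM in liver, 317, 259.6 and 241 in lung and 407 and 378 in heart controls. Knockout-labelled liver had 553, 339 and 496 CPM, all above the controls, and missed the threshold (log2 change 0.77, SE 0.26, adjusted p = 0.0535). Slc38a1 (SNAT1), a relative for glutamine, rose in heart from 1.60 and 3.05 CPM to 12.4 and 5.43 (log2 change 1.94, SE 0.55, adjusted p = 0.0239), and that call ended without heart control 1 or heart knockout-labelled library 1 (adjusted p = 0.179 to 0.224).

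Slc38a7, a glutamine exporter of the lysosome, fell in liver and heart. Liver had 69.4, 72.7 and 72.5 CPM in controls and 48.8, 45.9 and 49.4 in knockout-labelled libraries (log2 change −0.57, SE 0.082, adjusted p = 0.00027). Heart had 31.1 and 32.7 CPM in controls and 22.4 and 21.4 in knockout-labelled libraries (log2 change −0.54, SE 0.10, adjusted p = 0.00252), with a tight spread in each group. Lung, at 25.5, 27.5 and 28.8 and 26.8, 25.2 and 26.2 CPM, overlapped. The heart call ended with only heart libraries in the fit (adjusted p = 0.051). Slc38a6 fell in the same 2 tissues. Liver went from 81.6, 98.7 and 85.4 CPM to 53.2, 74.6 and 42.9 (log2 change −0.64, SE 0.19, adjusted p = 0.0279) and heart from 27.3 and 20.6 CPM to 9.05 and 11.5 (log2 change −1.22, SE 0.23, adjusted p = 0.00299). In lung the 15.8, 17.6 and 20.6 CPM of knockout-labelled libraries also lay below every control (27.8, 24 and 24.4 CPM) but did not pass (adjusted p = 0.131). The liver call of Slc38a6 ended without liver control 2 or 3 or liver knockout-labelled library 1 or 3 (adjusted p = 0.0664 to 0.113) and with only liver libraries in the fit (adjusted p = 0.0731).

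Slc38a4 (SNAT4) fell in lung, from 1.96, 2.91 and 2.31 CPM to 0.461, 0.153 and 0.617 (log2 change −2.52, SE 0.63, adjusted p = 0.0235), all below the controls. The call ended without lung control 2 or 3 or lung knockout-labelled library 1 or 2 (adjusted p = 0.0582 to 0.0831). Slc38a5, a glutamine carrier, had 1.55, 1.16 and 0.809 CPM in lung controls and 0.0728, 0.153 and 0.265 in knockout-labelled lung and did not pass (adjusted p = 0.0843). Lung epithelial markers moved beside these, with 10 genes summing to 2059.6 to 3279 CPM in lung controls and 385 to 617 in knockout-labelled lung, 5 of 10 lower and none at 0. Leukocyte markers summed to 459 to 550.1 against 87.7 to 201 CPM there, with 1 of 10 tested genes lower (Lyz2). Their part in the lung results was not tested. Slc38a3 (SNAT3), a glutamine carrier of hepatocytes, read 7.25, 11.8 and 49.7 CPM in liver controls, highest in control 3 as the hepatocyte markers were, and 4.87, 6.70 and 8.46 in knockout-labelled liver (adjusted p = 0.0655). Slc38a11 was chiefly a heart gene in controls, at 4.93 and 4.32 CPM there and at most 0.0791 CPM in liver and lung. Slc38a10 and Slc38a9, the latter a lysosomal arginine sensor of the mTORC1 pathway, passed in no tissue.

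Among the Slc36 carriers, Slc36a4, a carrier of proline and tryptophan, rose in lung and heart. Lung went from 43.7, 51.5 and 52.8 CPM to 132, 101 and 75.6 (log2 change 1.06, SE 0.17, adjusted p = 0.00188) and heart from 52.2 and 47.4 CPM to 89.1 and 70.4 (log2 change 0.68, SE 0.21, adjusted p = 0.0373). Liver, the highest tissue in controls at 98.5, 114 and 96.2 CPM, had 92.7, 75.3 and 84.3 CPM in knockout-labelled libraries, all below the controls, and did not pass (adjusted p = 0.263). The 3 knockout-labelled groups thus overlapped in Slc36a4, where liver controls had stood above the others. The heart call ended without heart control 1 or 2 or heart knockout-labelled library 1 (adjusted p = 0.0964 to 0.213), while the lung call kept its side in each of the 23 other settings run. Slc36a1 (PAT1), which exports amino acids from lysosomes with protons, read 36.3 to 109 CPM over all 16 libraries and passed in no tissue, and Slc36a2 was mostly a lung gene that passed in none.

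Slc43a2 (chr11:75531694-75577575, plus strand), the LAT4 carrier that lets branched-chain amino acids and phenylalanine pass down their gradient, was a liver gene in controls. Liver controls read 475, 553 and 569 CPM, lung controls 10.5, 11.4 and 13.3 and heart controls 8.94 and 9.98 (liver above lung by a log2 difference of 5.50, SE 0.18, adjusted p = 1.81e-10). In knockout-labelled liver it fell to 195, 214 and 279 CPM (log2 change −1.21, SE 0.15, adjusted p = 7.53e-05). In heart it rose to 16.3 and 18.1 CPM (log2 change 0.86, SE 0.19, adjusted p = 0.00612), the 1 gene of the 43 that passed in opposite directions in 2 tissues. Lung had 13.3, 17 and 17.3 CPM, at or above its controls, and did not pass (log2 change 0.44, SE 0.15, adjusted p = 0.0955). Even after its fall, the lowest liver library stood far above every heart and lung library. The heart call ended without heart control 1 (adjusted p = 0.0642). Of the exon bases of Slc43a2, 9.18% lie opposite those of Gm45606.

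Slc43a3 (chr2:84936579-84958509, plus strand) rose in lung, where 753, 1182 and 1140.1 CPM in controls compare with 2159, 1735 and 1849 (log2 change 0.90, SE 0.21, adjusted p = 0.0148). In liver, 1153, 1647 and 1533 CPM in controls and 1493, 1644 and 1473 in knockout-labelled libraries overlapped. The call ended without lung control 1 (adjusted p = 0.0629). Slc43a1 (LAT3), a facilitated carrier like Slc43a2, rose in liver from 2.06, 1.16 and 1.49 CPM to 4.06, 3.25 and 6.54 (log2 change 1.55, SE 0.47, adjusted p = 0.0315) at a far lower level than Slc43a2, and this call ended without liver control 2 or 3 or liver knockout-labelled library 3 (adjusted p = 0.0941 to 0.115).

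In the Slc6 family, Slc6a2 (chr8:92960079-93001667, plus strand), which takes up noradrenaline, read 365, 599.7 and 467 CPM in lung controls, at most 0.152 in liver controls and 1.07 and 0.665 in heart controls (log2 difference 12.31, SE 0.83, adjusted p = 5.09e-08, lung against liver). Knockout-labelled lung had 856, 301 and 146 CPM, with library 1 above and libraries 2 and 3 below all controls, and did not pass (log2 change −0.14, SE 0.46, adjusted p = 0.903). Slc6a4 (chr11:76998603-77032340, plus strand), which takes up serotonin, rose in lung, with 1.89, 2.74 and 2.15 CPM in controls against 25.3, 32.5 and 15.3 in knockout-labelled lung (log2 change 3.43, SE 0.40, adjusted p = 0.000228). Every knockout-labelled lung library was far above every control, and no other group passed 1.52 CPM. The rise kept its call in each of the 23 other settings run. Platelets also carry Slc6a4. The erythroid and platelet list summed to 53.7 to 67.1 CPM in lung controls and to 129, 174 and 543 in knockout-labelled lung libraries 1, 2 and 3. Of its 10 genes, 2 were higher (Itga2b and Pf4). The list includes haemoglobin genes, of which Hbb-bs had 1645, 1805 and 8409 counts in these knockout-labelled libraries. In liver, where Slc6a4 did not pass, 3 of the 10 were higher (Gp1bb, Itga2b and Pf4), and in heart 2. The part of these cells in the lung result was not tested. Slc6a14, a broad carrier of neutral and cationic amino acids, was also a lung gene, with 3.03, 7.40 and 3.54 CPM in lung controls and no count in heart controls, a level at least 109-fold higher in lung by the floor of 3 counts. Its 2.06, 1.90 and 1.999 CPM in knockout-labelled lung lay below every control and did not pass (adjusted p = 0.276).

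Slc6a6 (chr6:91684053-91759066, plus strand), the taurine carrier, rose in liver and lung. Controls had 150.2, 134 and 116 CPM in liver, 331, 214 and 347 in lung and 1516 and 1644 in heart, in that order and with no overlap. Liver reached 377, 322 and 548 CPM in knockout-labelled libraries (log2 change 1.64, SE 0.26, adjusted p = 0.000619) and lung 455, 456 and 786 (log2 change 0.93, SE 0.26, adjusted p = 0.0404), both above every control. Heart, the tissue with the most, had 811 and 1062 CPM, below both controls (log2 change −0.75, SE 0.32, adjusted p = 0.113), and did not pass. The 3 tissues thus lay closer together, 11.8-fold apart in controls and 2.25-fold in knockout-labelled libraries. The lung call of Slc6a6 ended without liver control 1, 2 or 3 or lung control 1, 2 or 3 or lung knockout-labelled library 3 or heart control 1 or 2 (adjusted p = 0.0518 to 0.176) and with only lung libraries in the fit (adjusted p = 0.0604).

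Slc6a9 (chr4:117834506-117875198, plus strand), the GlyT1 glycine carrier, rose in liver and heart. Liver went from 0.738, 0.817 and 1.06 CPM to 2.97, 3.10 and 12.3 (log2 change 2.80, SE 0.48, adjusted p = 0.0011), with library 3 far above the other 2 but all above the controls. Heart went from 3.48 and 3.85 CPM to 15 and 13.8 (log2 change 1.97, SE 0.55, adjusted p = 0.0225). Lung read 5.57, 9.12 and 10.2 against 14.8, 10.9 and 13.6 CPM and did not pass. The heart call ended without heart control 1 or 2 or heart knockout-labelled library 1 or 2 (adjusted p = 0.0564 to 0.129), and in liver the log2 change was 1.80 without knockout-labelled library 3 (adjusted p = 0.000518). Of the exon bases of Slc6a9, 27.8% lie opposite those of Ccdc24. Slc6a8, the creatine carrier, a gene of chromosome X, rose slightly in liver, from 21.2, 25.1 and 20.9 CPM to 27.7, 26.5 and 34.5 (log2 change 0.40, SE 0.13, adjusted p = 0.0395). That call ended without liver control 1 or 3 or liver knockout-labelled library 3 or heart control 2 (adjusted p = 0.0501 to 0.166), with no filter on low counts (adjusted p = 0.118) and with only liver libraries in the fit (adjusted p = 0.0816). Slc6a13 and Slc6a12, carriers of GABA and betaine, were genes of the liver libraries in controls, at 1.48, 2.52 and 5.07 and 0.316, 0.749 and 1.88 CPM. Both were highest in control 3, as were the hepatocyte markers, which summed to 880.0, 1579 and 3088 CPM in liver controls 1, 2 and 3. The part of hepatocytes in these levels was not tested. Neither gene had a count in lung controls, so that liver was at least 114-fold and 37.1-fold higher. Slc6a17 was a heart gene, at 7.81 and 3.77 CPM in controls against at most 0.194 CPM elsewhere. None of these 3 passed in a knockout comparison. The opposite-strand gene Slc7a6os rose in liver from 25.8, 28.3 and 26.8 CPM to 33.3, 34.6 and 37.9 (log2 change 0.39, SE 0.11, adjusted p = 0.0214), a call that ended without liver control 1 or 3 or liver knockout-labelled library 3 (adjusted p = 0.0613 to 0.0788) and with no filter on low counts (adjusted p = 0.109).

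**Figure D4:**
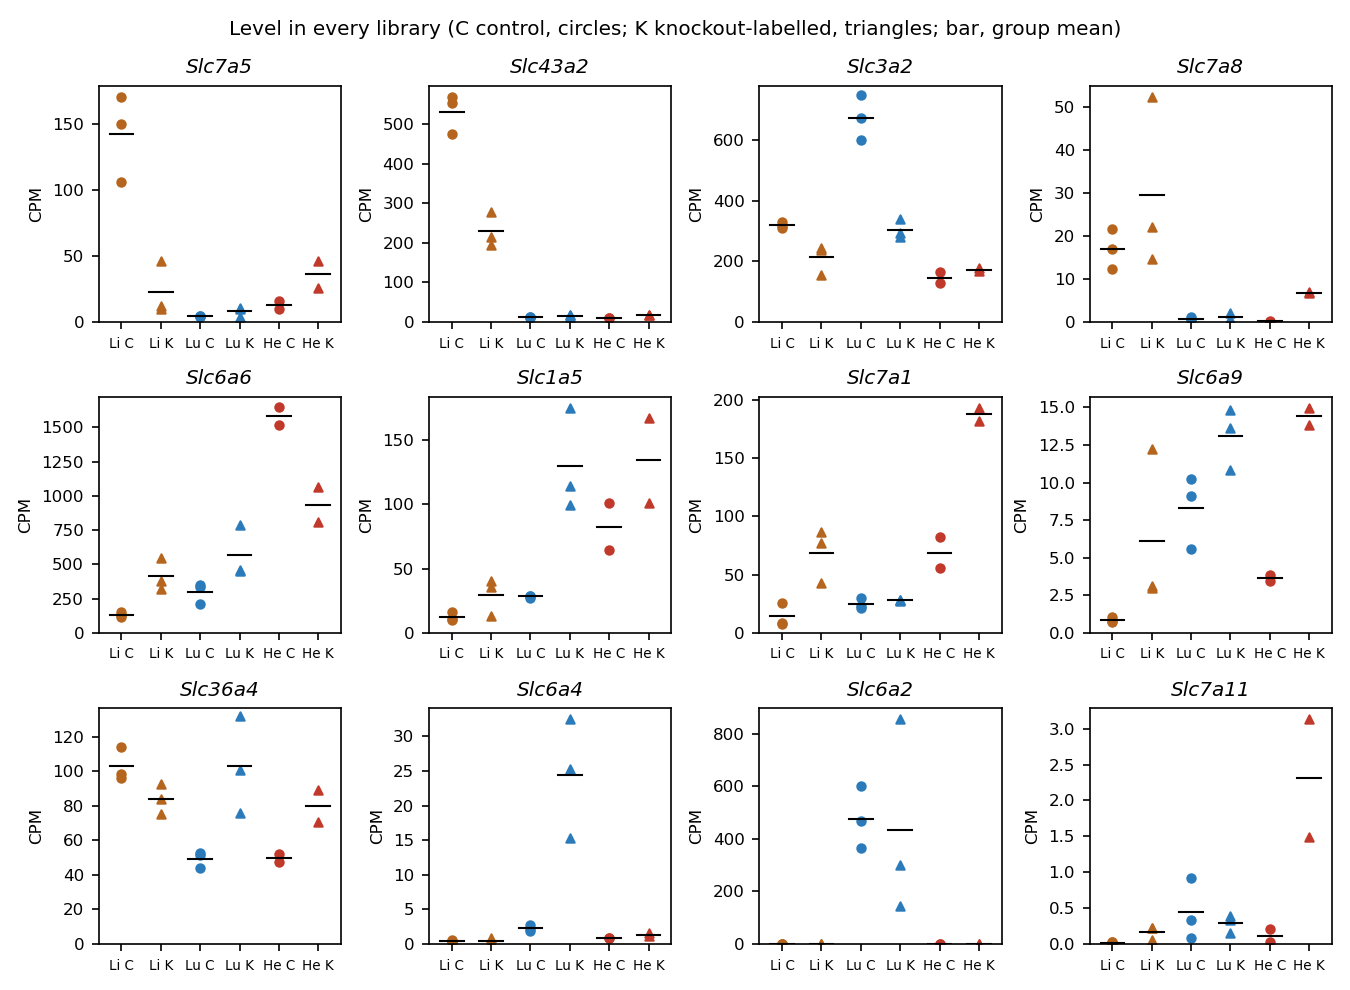
CPM of 12 genes in every library (circles, controls; triangles, knockout-labelled; Li liver, Lu lung, He heart; bars, group means), each panel on its own linear axis from 0. Slc7a5, Slc43a2 and Slc3a2 stand lower in knockout-labelled liver, Slc6a6, Slc7a1 and Slc6a9 higher there, Slc6a4 and Slc1a5 higher in knockout-labelled lung, and Slc7a8 and Slc7a11 higher in knockout-labelled heart; Slc6a2 spreads widely in knockout-labelled lung.

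Whether a gene's change differed between tissues was tested directly, as the knockout-labelled change in 1 tissue minus that in another. Between lung and liver 6 genes of the 43 differed, 5 with the higher change in lung and 1 with the lower, where 6.2% of all genes differed (3.13% higher and 3.08% lower). Between heart and liver 6 differed, 5 higher in heart and 1 lower, where 8.32% of all genes did (4.62% higher and 3.7% lower). Between heart and lung 7 differed, 4 higher in heart and 3 lower, where 6.4% of all genes did (3.83% higher and 2.57% lower). Each pair of these tests shares the libraries of 1 tissue. Of the 4 genes with the higher change in heart than in lung, Slc7a11 was admitted to the list only through the knockout-labelled heart libraries. Its side in that test was thus fixed in part. Slc7a5 and Slc43a2 both fell in liver and in no other tissue. For Slc7a5 the change in lung exceeded that in liver by a log2 difference of 3.54 (SE 0.76, adjusted p = 0.0131) and that in heart did so by 4.16 (SE 0.84, adjusted p = 0.00871), the latter lost without heart control 2 (adjusted p = 0.0565). For Slc43a2 the differences were 1.65 (SE 0.21, adjusted p = 0.000531) and 2.08 (SE 0.24, adjusted p = 0.000226), and both held in each other setting run. Slc36a4 also stood apart from liver, by 1.35 in lung (adjusted p = 0.00456) and 0.97 in heart (adjusted p = 0.0412).

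The change of Slc6a6 was lower in heart than in liver (log2 difference −2.39, adjusted p = 0.00329) and than in lung (−1.68, adjusted p = 0.0275). The change of Slc6a4 was higher in lung than in liver (3.20, adjusted p = 0.00592), and its change in heart was lower than that in lung (−2.81, adjusted p = 0.018). The change of Slc7a8 was higher in heart than in liver (4.27, adjusted p = 0.0138) and than in lung (4.48, adjusted p = 0.0187). For Slc3a2, heart differed from lung by 1.39 (adjusted p = 0.00864). Of these, the heart and lung difference of Slc6a4 was lost without any 1 heart library (adjusted p = 0.0566 to 0.0664). That of Slc6a6 was lost without lung control 2 or heart control 1 or 2 or heart knockout-labelled library 1 (adjusted p = 0.0557 to 0.136) and that of Slc3a2 without heart control 1 (adjusted p = 0.0547). The Slc7a8 differences were lost without heart control 1 (adjusted p = 0.0914) against liver and without heart control 1 or heart knockout-labelled library 1 (adjusted p = 0.0532 to 0.101) against lung, and that of Slc36a4 in heart without liver control 1, 2 or 3 or liver knockout-labelled library 2 or 3 or lung control 2 or 3 or heart control 1 or 2 or heart knockout-labelled library 1 (adjusted p = 0.0514 to 0.142).

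The change of Slc7a1 was lower in lung than in liver (−2.11, adjusted p = 0.0294). Slc38a7 differed between lung and liver by 0.51 (adjusted p = 0.0192) and between heart and lung by −0.48 (adjusted p = 0.0462). Slc7a7 differed between heart and liver by 0.76 (adjusted p = 0.0284). Between heart and lung, Slc38a1 differed by 2.67 (adjusted p = 0.0369) and Slc7a11, admitted only through knockout-labelled heart libraries, by 4.89 (adjusted p = 0.0387). Each was lost without some single library, with adjusted p up to 0.0726 for Slc7a1, 0.0574 and 0.165 for Slc38a7, 0.107 for Slc7a7, 0.181 for Slc38a1 and 0.164 for Slc7a11. Without heart control 1 no gene of the 43 passed between heart and lung.

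The genes called in 2 tissues can be set beside each other, since the 3 knockout comparisons share no library. The comparisons may still share animals, since the labels do not say which animal gave a library and sex followed the description number in every tissue. Agreement between tissues may thus not be independent. Slc1a5 and Slc6a6 rose in liver and lung, 28.6% of the 7 that rose in liver and 40% of the 5 in lung, where of all genes 18.3% and 40.3% of the lists were shared. Slc3a2 and Slc7a7 fell in both, 28.6% of the 7 that fell in liver and 66.7% of the 3 in lung (all genes, 19.2% and 46%). Slc6a9 and Slc7a1 rose in liver and heart, 28.6% and 25% of the lists (all genes, 32.2% and 30.2%), and Slc38a6 and Slc38a7 fell in both, 28.6% and 66.7% (all genes, 32.5% and 35.3%). Slc36a4 alone rose in lung and heart, 20% and 12.5% (all genes, 39.7% and 16.9%). The span between the highest and lowest tissue mean, with 0.5 CPM added, was narrower in knockout-labelled than in control libraries for 30 of the 43 genes (69.8%), beside 58.7% of all genes tested. The median log2 span in controls was 2.17 for the 43 and 0.73 for all genes tested, so these shares start from unlike spans. Slc3a2 went from 4.60-fold to 1.76-fold, Slc43a2 from 53.5-fold to 14-fold and Slc7a5 from 29.9-fold to 4.35-fold. Slc6a4 went the other way, from 3.06-fold to 25.5-fold. This is a description with no test.

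Other genes that handle amino acids were counted from lists that the family prefixes did not use. Aminoacyl-tRNA synthetases, which load amino acids onto tRNA, passed the threshold mostly in heart. There 13 of 20 rose and none fell, beside 10.2% of all genes that rose, with a median log2 change of 0.56. Examples were Nars (log2 change 0.77, adjusted p = 0.000935), Mars (log2 change 0.94, adjusted p = 0.00229), Sars (log2 change 0.64, adjusted p = 0.00276) and Aars (log2 change 0.87, adjusted p = 0.00305). In liver Qars rose (log2 change 0.37, adjusted p = 0.0494) and Wars fell (log2 change −0.86, adjusted p = 0.00326). In lung Kars (log2 change −0.36, adjusted p = 0.0401) and Wars (log2 change −0.91, adjusted p = 0.00572) fell. Tested directly, the change of none of the 20 differed between heart and liver, where 8.32% of all genes did. Between heart and lung, 4 of the 20 had the higher change in heart (Eprs, Iars, Kars and Sars), beside 3.83% of all genes. The count of 13 in heart was 6 without heart control 1, 5 without heart control 2, 4 without knockout-labelled heart library 1 and 13 without library 2. Lung epithelial and leukocyte markers moved with it in heart, as given above for the light chains, and their part was not tested.

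Genes of the ATF4 and amino acid response, 26 tested, were counted next. In liver 5 rose and 2 fell (26.9% of the list, beside 19.4% of all genes), in lung 4 rose and none fell (15.4%, beside 8.46%), and in heart 7 rose and 2 fell (34.6%, beside 19.3%). Psat1, which makes serine, rose in liver (log2 change 2.12, adjusted p = 0.000982), lung (log2 change 1.41, adjusted p = 0.0197) and heart (log2 change 2.67, adjusted p = 0.000872). Ddit4, a brake on mTORC1, rose in the same 3 tissues, most in liver (log2 change 3.11, adjusted p = 6.09e-07). Mthfd2, of mitochondrial folate metabolism, rose in heart (log2 change 2.63, adjusted p = 0.00301) and lung (log2 change 1.66, adjusted p = 0.0216). Chac1, which breaks down glutathione, fell in liver (log2 change −1.19, adjusted p = 0.0129) and heart (log2 change −1.37, adjusted p = 0.0193). Of 35 mTORC1 sensing genes, 3 rose and 2 fell in liver (14.3%), none passed in lung, and 1 rose and 2 fell in heart (8.57%), in each tissue below the 19.4%, 8.46% and 19.3% of all genes. Sesn2, a leucine sensor, rose in liver (log2 change 1.32, adjusted p = 0.000292) and Sesn1 fell there (log2 change −1.08, adjusted p = 0.00801).

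Of 20 genes of glutathione synthesis and cystine use, 3 rose and 2 fell in liver (25%, beside 19.4% of all genes), 5 rose in lung (25%, beside 8.46%), and 6 rose and 1 fell in heart (35%, beside 19.3%). Srxn1 and Txnrd1, antioxidant enzymes, rose in all 3 tissues, Srxn1 by 1.01, 1.52 and 1.56 on the log2 scale in liver, lung and heart (adjusted p = 0.00327, 0.000678 and 0.000982). Gclc and Gclm, the subunits of the first enzyme of glutathione synthesis, rose in lung (log2 change 0.96, adjusted p = 0.0205 for Gclc). Of 17 genes of glutamine and glutamate metabolism, 4 rose in liver (23.5%, beside 9.54% of all genes that rose), 5 in lung (29.4%, beside 4.35%) and 4 in heart (23.5%, beside 10.2%). Got1, which interconverts aspartate and glutamate, rose in liver (log2 change 1.07, adjusted p = 0.00129), lung (log2 change 1.11, adjusted p = 0.00273) and heart (log2 change 1.91, adjusted p = 0.000183). Of 20 genes of arginine and polyamine metabolism, 3 rose and 3 fell in liver (30%, beside 19.4% of all genes), 3 fell in lung (15%, beside 8.46%), and 4 rose and 1 fell in heart (25%, beside 19.3%). Odc1, the first enzyme of polyamine synthesis, rose in liver (log2 change 3.93, adjusted p = 0.000104) and heart (log2 change 3.06, adjusted p = 0.00295), the 2 tissues in which the arginine and ornithine carrier Slc7a1 rose, and had a log2 change of 0.10 in lung. A link between the 2 genes was not tested. Ass1, which makes argininosuccinate for arginine, rose in liver (log2 change 1.43, adjusted p = 0.0158) and fell in lung (log2 change −1.89, adjusted p = 0.00811) and heart (log2 change −1.49, adjusted p = 0.0406). Nos3, the endothelial enzyme that makes nitric oxide from arginine, fell in liver (log2 change −1.52, adjusted p = 9.47e-05) and lung (log2 change −0.78, adjusted p = 0.0201).

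**Figure D5:**
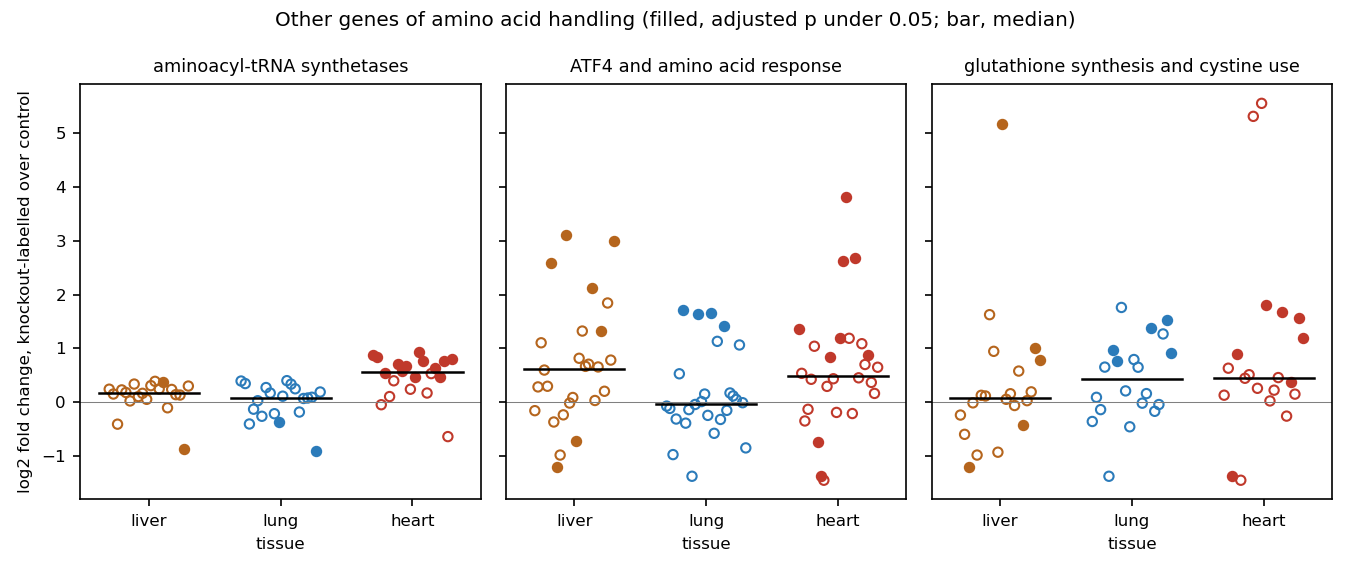
Log2 change of each gene of 3 lists between knockout-labelled and control libraries in liver, lung and heart; filled points passed an adjusted p of 0.05, open points did not, and bars are medians. In heart 13 of 20 synthetase points are filled and all of these lie above 0, against 2 filled points in liver and 2 in lung. Counts of filled points do not test a difference between tissues.

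Branched-chain and tryptophan breakdown, 13 genes, gave 4 higher and 1 lower in liver (38.5%, beside 19.4% of all genes), none in lung (beside 8.46%) and 2 higher in heart (15.4%, beside 19.3%). The 20 amino acid carriers of other families gave 2 higher and 3 lower in liver (25%), none in lung and 1 higher in heart (5%), beside the same shares of all genes. Among them Sfxn1, a mitochondrial serine carrier, rose in liver (log2 change 1.08, adjusted p = 0.00363) and Slc25a12, a mitochondrial aspartate and glutamate carrier, fell there (log2 change −0.52, adjusted p = 0.00322).

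The 24 genes of the families below the minimum were 21 carriers and 3 opposite-strand genes. No count was seen for Slc36a1os, Slc6a18 and Slc7a13. Of the Slc6 carriers 9 of 21 were expressed, of the light chains 6 of 10, of the Slc38 carriers 10 of 11, of the Slc1 carriers 5 of 7, of the cationic carriers 4 of 5 and of the Slc36 carriers 3 of 4, while all 3 Slc43 carriers and both heavy chains were. Of the 24, 5 (Slc6a7, Slc6a20a, Slc6a20b, Slc7a9 and Slc7a14) had counts enough to be tested, and none of these passed in a knockout comparison. Among the 20 expressed genes that passed in no knockout comparison were Slc38a2, Slc38a10 and Slc36a1, which are abundant in all 3 tissues, and Slc6a2.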

How the data were processed

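Read counts per gene were deposited by the authors as whole numbers in 1 table, with 1 column for each of the 16 libraries of polyadenylated RNA. Per the submitters' processing notes, FastQC 0.11.5 and STAR 2.7.6a were used with the GRCm38 genome. Neither the program that counted reads nor its annotation or handling of strand is named there, and per the labels' protocols the kit was either an unstranded or a stranded one without saying which library had which. Where 2 genes overlap on opposite strands, their counts are therefore uncertain. All columns of the table belonged to these samples.

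Depth ran from 30226340 to 41449054 counts per library, and precision at low counts is limited accordingly. Groups came from the sample labels. The 16 libraries were fitted together by edgeR's quasi-likelihood method, with 6 group means (R 4.3.3, edgeR 4.0.16, limma 3.58.1), with TMM scaling and the filterByExpr minimum of 10 counts and a total of 15, which left 19646 genes. p-values were Benjamini-Hochberg adjusted over all genes tested, with a threshold of 0.05. Levels per kb used exon lengths of GENCODE M21 on GRCm38, and gene locations came from the same annotation.

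The members and lists were chosen with earlier results of these data known. Genes were named where they passed the threshold, up to 20 by size of change in each knockout comparison, 12 in each control comparison and 8 in each test of a difference, with the heavy chain, its light chains, Slc7a1 and the most abundant gene of each role always given, and up to 4 genes of each other list per tissue by adjusted p. Slc7a2, Slc38a9, Sesn1, Sfxn1, Slc25a12 and the other genes given outside this rule were picked after their values were seen. A result for 1 gene of the metabolic lists is not reported here. Alternatives were DESeq2 1.42.0, another scaling, other low-count filters, only the groups compared, the sample numbers as a block, and each library left out. In liver 2 of 3 same-numbered pairs of a control and a knockout-labelled library correlated above 0.1 in their deviations from the group means. In lung none did, and the numbers were not treated as pairs. Libraries of different tissues were not compared in this way, so a shared animal across tissues was not checked. Every library with number 2 in its description was male by Xist and Y-linked counts, and every other library female.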

Additional observations from a re-analysis of the deposited data

Results flagged for a closer look

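A gene is given here because the test of the difference itself, between its log2 change in 1 tissue and that in another (edgeR, Benjamini-Hochberg adjusted over all genes), passed 0.05. For lung minus liver the differences were 3.54 (adjusted p = 0.0131) for the LAT1 light chain Slc7a5, 3.20 (adjusted p = 0.00592) for the serotonin carrier Slc6a4 and 1.65 (adjusted p = 0.000531) for the LAT4 carrier Slc43a2. They were 1.35 (adjusted p = 0.00456) for Slc36a4, 0.51 (adjusted p = 0.0192) for Slc38a7 and −2.11 (adjusted p = 0.0294) for the cationic carrier Slc7a1. For heart minus liver they were 4.27 (adjusted p = 0.0138) for Slc7a8, 4.16 (adjusted p = 0.00871) for Slc7a5 and 2.08 (adjusted p = 0.000226) for Slc43a2. Slc36a4 had 0.97 (adjusted p = 0.0412), Slc7a7 0.76 (adjusted p = 0.0284) and the taurine carrier Slc6a6 −2.39 (adjusted p = 0.00329).

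For heart minus lung the differences were 4.89 (adjusted p = 0.0387) for the cystine carrier Slc7a11, which the choice of genes admitted only through the knockout-labelled heart libraries and so fixed in part, 4.48 (adjusted p = 0.0187) for Slc7a8 and 2.67 (adjusted p = 0.0369) for Slc38a1. Slc3a2 had 1.39 (adjusted p = 0.00864), Slc38a7 −0.48 (adjusted p = 0.0462), Slc6a6 −1.68 (adjusted p = 0.0275) and Slc6a4 −2.81 (adjusted p = 0.018). Of these 19 differences, 6 passed in every other setting run: Slc7a5, Slc6a4, Slc43a2 and Slc36a4 between lung and liver, and Slc6a6 and Slc43a2 between heart and liver.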

How the results depend on the processing

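No named call reversed its direction in any setting. Without a single library, 2 uncalled lung values changed sign: Slc7a8 from 0.59 to −0.24 without knockout-labelled lung library 2, and Slc7a11 from −0.60 to 0.44 without lung control 2. Of the 33 named knockout calls 13 passed in every setting, of 36 control differences 30, and of 19 differences between tissues 6. With only the groups compared in the fit, 4 genes fell in liver in place of 7. With DESeq2, 12 genes differed in their change between heart and liver in place of 6, and 12 between heart and lung in place of 7. The shares of all genes called with DESeq2, or in the other settings of this section, are not given. The counts in these settings thus cannot show whether the listed genes moved more than other genes did. With 1 library left out, 3 to 9 genes rose and 4 to 7 fell in liver, 3 to 6 rose and 1 to 3 fell in lung, and 2 to 9 rose in heart. Control heart and lung differed in 7 to 23 genes. The change differed in 3 to 8 genes between heart and liver and in 0 to 10 between heart and lung. The cause was not tested. The count of 0 came without heart control 1, where the lone heart control is assumed to vary like the other groups. Fewer genes also differed between heart and lung without heart control 2 (3), knockout-labelled heart library 1 (1), lung control 2 (3) or knockout-labelled lung library 1 or 3 (4 each), and between heart and liver without heart control 1 or 2 (3 each). With the replicate block, by the numbers in the titles, 8 genes rose and 7 fell in liver, 6 rose and 3 fell in lung, and 8 rose and 3 fell in heart. By the numbers in the descriptions the block gave 9 and 7, 6 and 3, and 7 and 3. Control and knockout-labelled libraries of the same number and tissue correlated in their deviations by −0.01, 0.31 and 0.13 in liver. In lung the values were −0.11, −0.093 and 0.045, so not every library correlated best with its own number. The block by titles ended the calls of Slc1a2 (adjusted p = 0.0767) and Slc6a8 (0.0509) in liver and of the heart and lung difference of Slc38a7 (0.0531). The block by descriptions, where number 2 is also sex, ended those of Slc1a2 in liver (0.0765), Slc1a4 (0.0503) and Slc36a4 (0.059) in heart, of the heart and liver differences of Slc36a4 (0.0589) and Slc7a7 (0.05), of the heart and lung differences of Slc38a7 (0.075) and Slc7a11 (0.0581), and of control heart and lung differences of Slc38a5 (0.063) and Slc7a10 (0.052); both ended that of Slc1a2 (0.0507 and 0.0579). Both added Slc7a6 in liver (0.0333 and 0.0349).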
